A study of Mus musculus with 30 samples.

Results

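The miR-17-92 and miR-106b-25 clusters are groups of microRNAs (miRNAs) that are each cut from 1 long primary transcript. The members described here are the 8 mouse miRNAs whose names on the array equal mmu-miR-17, mmu-miR-19a, mmu-miR-20a, mmu-miR-19b and mmu-miR-92a of miR-17-92, and mmu-miR-106b, mmu-miR-93 and mmu-miR-25 of miR-106b-25. They are 8 of 1079 mouse miRNAs on the array, and 7 of them passed the filter on dim probes, which 306 mouse miRNAs passed in all. They were measured in heart sections holding both ventricles, from female C57BL/6 mice obtained at 5 to 6 weeks of age. All mice were given a single intratracheal instillation of saline with acellular lavage fluid from the airways of C57BL/6 mice, either alone (vehicle) or carrying 162 µg of Printex 90, a carbon black of nanosized particles. They were killed 1, 3 or 28 days later. There were 29 arrays with a signal: on day 1 those of 4 vehicle mice and 6 Printex 90 mice, on day 3 those of 6 vehicle mice and 4 Printex 90 mice, and on day 28 those of 4 vehicle mice and 5 Printex 90 mice. For another Printex 90 mouse of day 3 (replicate 3) only a value in a separate series table was used.

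As background, miR-17-92 is known for driving cell division downstream of MYC and E2F factors, and mice without it die at birth with small lungs and defects of the ventricular septum. Its paralogue miR-106b-25 lies in an intron of Mcm7, a gene of the DNA replication helicase, and is made together with it in dividing cells. A miRNA finds its targets mainly through its seed, bases 2 to 8 from the 5′ end. The members carry 3 seeds between them. That of miR-17 acts on brakes of the cell cycle such as Cdkn1a, and that of miR-25 and miR-92a on targets such as Bcl2l11 and integrin genes.

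The mature sequences show which members share a seed across the clusters and how close the probes' targets are to each other. They are RefSeq's for build GRCm38.p6, all 8 members were matched by name, and the seed is in capitals. The first group has the seed AAAGUGC, shared by 4 members and by miR-20b of another paralogous cluster on chromosome X.

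mmu-miR-17: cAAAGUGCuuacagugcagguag
mmu-miR-20a: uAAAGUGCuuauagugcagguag
mmu-miR-106b: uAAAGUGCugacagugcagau
mmu-miR-93: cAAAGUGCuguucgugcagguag
mmu-miR-20b: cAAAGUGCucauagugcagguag

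The second group has the seed GUGCAAA and is that of miR-19a and miR-19b of miR-17-92. The third has the seed AUUGCAC, with a member in each cluster.

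mmu-miR-19a: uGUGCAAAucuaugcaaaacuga
mmu-miR-19b: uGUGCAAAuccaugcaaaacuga
mmu-miR-92a: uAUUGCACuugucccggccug
mmu-miR-25: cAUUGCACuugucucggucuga

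Counting substitutions, insertions and deletions, miR-19a and miR-19b differ by 1 base, miR-17 and miR-20a by 2 bases, miR-20a and miR-20b by 2 bases, and miR-25 and miR-92a by 4 bases. Whether a probe also binds its closest relative was not tested. The 5 members of miR-17-92 lie within 813 bases on the plus strand of chromosome 14 (chr14:115043684-115044496). The 3 members of miR-106b-25 lie within 476 bases on the minus strand of chromosome 5 (chr5:138165332-138165807), inside the bounds of Mcm7. Identical mature miR-19b and miR-92a are also encoded on chromosome X (chrX:52741854-52742013, minus strand), so signals of these 2 members cannot be assigned to a cluster.

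Of the 8 members, 7 were detected in the heart and miR-17 was not well above background. The 7 were detected on 29 of 29 arrays, where detection means that a share of at least 0.5 of a probe's spots was well above background. miR-17, which has the same seed as miR-20a, was detected on 0 of 29 arrays by either of its 2 probes. Its processed signal, on the linear scale before scaling, ran from −4.07 to 18.5, so it was not well above background in any group and no fold is given. Over the same arrays the processed signal of miR-20a, its neighbour with 2 differing bases, ran from 119 to 552. Signals of 2 probes say nothing of which miRNA was more abundant.

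Markers of the heart were present beside them. The 5 cardiac muscle miRNAs listed (miR-1a, miR-133a, miR-133b, miR-208a-3p and miR-499) were all detected on 29 arrays. Of 7 markers of liver, brain, endocrine tissue and epithelium, 6 were detected on 0 arrays, and miR-122 of liver was detected on 26. Red cell miR-451, miR-144 and miR-144* and all 4 leukocyte markers were detected on 29 arrays. Per array, between 18.4% and 27.5% of spots were well above background. On Printex 90 day 1 replicate 5, smooth muscle miR-143 stood at 11.62 on the log2 scale, where no other array passed 10.53, so day 1 values are also given without that array.

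All levels below are log2 signals after each array was scaled on the 75th percentile of 418 probes that were detected on every array. The levels of the 7 detected members varied little between mice. From the lowest to the highest of 29 arrays, miR-92a spanned 1.24-fold, miR-19b 1.26-fold, miR-19a 1.31-fold and miR-20a 1.38-fold. The 3 members of miR-106b-25 spanned more, 1.54-fold for miR-25, 1.56-fold for miR-106b and 1.59-fold for miR-93. The residual SD within groups was between 0.07 and 0.17 for the 7 members, and its median over the 306 tested miRNAs was 0.27. All 7 members were detected on every array, as 211 mouse miRNAs were, so the 306 also hold miRNAs that were not. Spread was not compared among miRNAs of like brightness.

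Within miR-17-92, miR-19a had its lowest group mean in vehicle mice of day 28, 6.95 ± 0.08 (SD, n = 4), and its highest in Printex 90 mice of day 1, 7.11 ± 0.08 (n = 6). For miR-20a the lowest was vehicle day 1, 8.09 ± 0.05 (n = 4), and the highest Printex 90 day 3, 8.22 ± 0.05 (n = 4). For miR-19b the lowest was Printex 90 day 28, 9.36 ± 0.07 (n = 5), and the highest Printex 90 day 3, 9.51 ± 0.11 (n = 4). These group means of a member lay within 1.12-fold of each other. For miR-92a the lowest was vehicle day 1, 8.55 ± 0.04 (n = 4), and the highest Printex 90 day 3, 8.68 ± 0.10 (n = 4).

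Within miR-106b-25 the highest group mean of every member was that of vehicle mice of day 3, at 8.38 ± 0.16 (SD, n = 6) for miR-106b, 6.92 ± 0.15 for miR-93 and 8.03 ± 0.18 for miR-25. The lowest was vehicle day 28 for miR-106b, 8.14 ± 0.08 (n = 4), and for miR-93, 6.72 ± 0.08. For miR-25 it was vehicle day 1, 7.83 ± 0.08 (n = 4). With the 6 group means of a member placed in order, 1 of the steps between neighbours was wider than the member's residual SD. It was the step of miR-19a from vehicle day 1 to vehicle day 3, 0.08, and the values of the mice in these groups overlapped, as they did for all other neighbours.

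The first question was whether carbon black in the airways was followed by other levels of these miRNAs in the heart. On day 1 all 7 detected members had a higher mean in Printex 90 than in vehicle mice, by small amounts of 0.02 to 0.17 on the log2 scale (1.01-fold to 1.13-fold). No member passed the test (limma, Benjamini-Hochberg over 306 miRNAs, threshold 0.05), and 0% of all tested miRNAs passed in this comparison, where 2 of 306 had an unadjusted p under 0.05 and none of these was a member. Under the scaling used throughout, the highest upper 95% limit among the separate intervals of the 7 members was 0.37, or 1.29-fold. The median over all 306 miRNAs was −0.07.

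The member with the widest day 1 difference was miR-25, a miRNA studied in heart muscle for its action on the calcium pump gene Atp2a2. Vehicle mice stood at 7.72, 7.82, 7.89 and 7.90, and the 6 Printex 90 mice ran from 7.89 over a median of 7.92 to 8.20. All 6 exposed mice lay above the vehicle mean, but the groups overlapped. The difference was 0.17 ± 0.10 (SE), with an adjusted p of 0.742.

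For miR-106b the vehicle mice stood at 8.13, 8.20, 8.28 and 8.30, and the Printex 90 mice ran from 8.20 over a median of 8.35 to 8.71. Here 5 of 6 exposed mice lay above the vehicle mean, for a difference of 0.15 ± 0.10 (limma adjusted p = 0.742). The third member of that cluster, miR-93, differed by 0.13 ± 0.11, with 5 of 6 exposed mice above the vehicle mean.

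The 4 members of miR-17-92 also had means above vehicle on day 1. For miR-20a vehicle mice stood at 8.02, 8.08, 8.12 and 8.13, and Printex 90 mice ran from 8.01 over a median of 8.18 to 8.41, a difference of 0.12 ± 0.08 (limma adjusted p = 0.742). For miR-19a all 6 exposed mice lay above the vehicle mean of 7.01, with a difference of 0.09 ± 0.06. The other 2 members were closer to vehicle, at 0.07 ± 0.07 for miR-92a and 0.02 ± 0.07 for miR-19b, each with 4 of 6 exposed mice above the vehicle mean.

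These day 1 signs depended on how arrays were scaled. Without scaling all 7 day 1 differences were below 0, with a median of −0.07, while the median of all 306 miRNAs was −0.24; with the 75th percentile taken over all probes the 7 ran from 0.19 to 0.34. Relative to the median of all tested miRNAs, 7 of 7 members lay above it under both, and 6 of 7 after quantile normalization. Without Printex 90 day 1 replicate 5 the differences were 0.05 to 0.19. The arrays lay on 4 slides, each with mice of both treatments of day 1, and with slide as a block the 7 ran from 0.01 to 0.17. Within single slides, where a group had 1 or 2 mice, miR-25 differed by 0.06 to 0.23 and miR-106b by 0.00 to 0.30, while miR-19b ran from −0.02 to 0.05. Red cell markers were higher in the same mice: miR-451 differed by 0.47 ± 0.24, miR-144 by 0.42 ± 0.24 and miR-144* by 0.57 ± 0.26, each with 5 of 6 exposed mice above the vehicle mean and none past the threshold. The summed log2 level of the 3 red cell markers ran from 13.5 to 14.0 in vehicle and from 13.7 to 14.7 in Printex 90 mice. The 3 are those of 4 listed red cell markers that the array held, and none was at background. Their part in the members' differences was not tested.

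**Figure D1:**
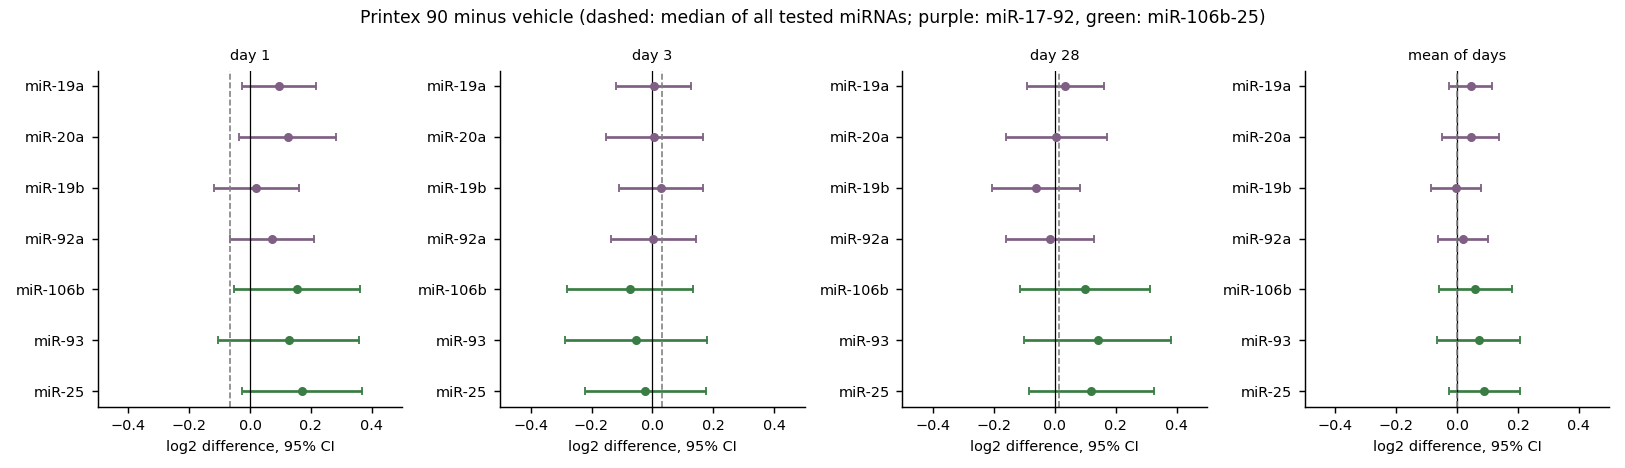
Each panel shows, for 1 day or for the mean of the days, the log2 difference of Printex 90 minus vehicle for the 7 detected members with its 95% confidence interval (horizontal axis), purple for miR-17-92 and green for miR-106b-25; the dashed line is the median of the 306 tested miRNAs. All intervals include 0, and the day 1 points run from 0.02 to 0.17.

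On day 3 the members of exposed and vehicle mice were close to each other. Differences ran from −0.07 to 0.03, with 4 above 0 and 3 below, 0 of 7 members passed, and 0% of all tested miRNAs did (limma; 1 of 306 had an unadjusted p under 0.05). The 3 below 0 were the members of miR-106b-25. Without scaling all 7 were above 0, where the median of all tested miRNAs was 0.13, and under the 75th percentile over all probes and in the series value table all 7 were below 0. For miR-106b the Printex 90 mice stood at 8.22, 8.25, 8.28 and 8.49, and vehicle mice ran from 8.19 over a median of 8.37 to 8.65. The difference was −0.07 ± 0.10, and the values of the exposed mice lay within those of vehicle mice. The 4 members of miR-17-92 differed by at most 0.03. Red cell miR-451 was at −0.18 ± 0.24 in this comparison, and the summed level of the red cell markers ran from 13.9 to 14.9 in vehicle and from 13.8 to 14.9 in Printex 90 mice.

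On day 28, 0 of 7 members passed and 0% of all tested miRNAs did (limma; 1 of 306 had an unadjusted p under 0.05). Differences were 0.14 ± 0.12 for miR-93, 0.12 ± 0.10 for miR-25 and 0.10 ± 0.10 for miR-106b, and ran from −0.06 to 0.03 in miR-17-92. For miR-25 vehicle mice stood at 7.74, 7.84, 7.86 and 7.95, and Printex 90 mice at 7.84, 7.89, 7.92, 8.00 and 8.18. Printex 90 day 28 replicate 2 was the highest mouse of its group for miR-25, miR-93 and miR-106b, and without it these differences were 0.07, 0.04 and 0.02. For miR-93 it stood at 7.28, where the other 4 exposed mice stood at 6.65, 6.73, 6.80 and 6.85 and the vehicle mice at 6.61, 6.71, 6.76 and 6.80. That mouse was also the highest of its group for miR-451, at 14.56. With the 75th percentile over all probes all 7 differences of day 28 were below 0, from −0.23 to −0.03, where the median of all tested miRNAs was −0.16; all 7 were also below 0 after quantile normalization and in the series value table. Red cell miR-451 was at 0.42 ± 0.25 in this comparison. The summed level of the red cell markers ran from 13.4 to 13.7 in vehicle and from 13.6 to 14.7 in Printex 90 mice, and its part was not tested.

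As the mean of the 3 days, differences ran from −0.00 for miR-19b to 0.09 ± 0.06 for miR-25 (limma adjusted p = 0.994). By limma 0 of 7 members and 0% of all tested miRNAs passed, and 0 of 306 had an unadjusted p under 0.05. The 95% intervals of the 7 members lay between −0.09 and 0.21, or 0.943-fold and 1.15-fold of vehicle. Whether the exposure difference itself changed between days was tested as an interaction. Day 3 minus day 1 gave −0.23 ± 0.14 for miR-106b, −0.19 ± 0.14 for miR-25 and −0.18 ± 0.16 for miR-93, and values from −0.12 to 0.01 in miR-17-92. These signs turned with the scaling: without it all 7 were above 0, from 0.09 to 0.32, where the median of all tested miRNAs was 0.36, and under the 75th percentile over all probes they ran from −0.49 to −0.26. For day 3 minus day 1, 0 of 7 members and 0% of all tested miRNAs passed, for day 28 minus day 1 also 0 of 7 and 0%, and for day 28 minus day 3 likewise 0 of 7 and 0%. At an unadjusted p under 0.05 these gave 2, 3 and 1 of 306 miRNAs, none of them a member. These interactions and the daily comparisons share mice.

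Differences between days were next compared within each treatment. No member passed in any of them. In vehicle mice all 7 members had a higher mean on day 3 than on day 1, by 0.04 to 0.20, with 0 of 7 past the threshold and 0% of all tested miRNAs (limma; 18 of 306 had an unadjusted p under 0.05, 1 of them a member). Without scaling all 7 were below 0, where the median of all tested miRNAs was −0.26, and after quantile normalization 6 of 7 were above 0. For miR-25 the day 3 mice ran from 7.82 over a median of 8.02 to 8.35, and the day 1 mice from 7.72 to 7.90. The difference of miR-25 was 0.20 ± 0.10 (limma adjusted p = 0.439), with 5 of 6 day 3 mice above the day 1 mean. Red cell miR-451 differed by 0.47 ± 0.24 and miR-144 by 0.43 ± 0.24, each with 6 of 6 day 3 mice above the day 1 mean, and miR-144* by 0.44 ± 0.26 with 5 of 6. None of these 3 passed, and their part in the members' differences was not tested. In Printex 90 mice the same step ran from −0.07 to 0.05, again with 0 of 7 and 0% called, and 0 of 306 at an unadjusted p under 0.05.

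On day 28 the means of the members lay below those of day 3. In vehicle mice the differences ran from −0.24 to −0.05, 7 of 7 below 0 (5 of 7 without scaling), while the median of all 306 miRNAs was 0.10. With the 75th percentile over all probes that median was −0.03. No member passed in vehicle mice, where 0.654% of tested miRNAs did. By limma 22 of 306 had an unadjusted p under 0.05 there, 2 of them members. For miR-106b the day 28 vehicle mice stood at 8.07, 8.10, 8.14 and 8.25, all below the day 3 mean of 8.38, and the day 3 mice ran from 8.19 to 8.65. The difference was −0.24 ± 0.10 (limma adjusted p = 0.397). For miR-19a the day 28 mice stood at 6.89, 6.91, 6.94 and 7.07 and the day 3 mice ran from 6.98 over a median of 7.10 to 7.24. All 4 lay below the day 3 mean, and the difference was −0.15 ± 0.06 (adjusted p = 0.378). Within the 3 slides that held both days, miR-106b ran from −0.29 to −0.23 and miR-19a from −0.22 to −0.10. In Printex 90 mice the 7 differences ran from −0.14 for miR-19b to −0.01 for miR-93, with 0 of 7 called and 0.327% of all tested miRNAs. There 11 of 306 had an unadjusted p under 0.05 by limma, none of them a member. Under array weights, whose estimate stopped before it converged, miR-19b passed (limma adjusted p = 0.031). It was among 14 of 306 tested miRNAs that passed there, against 1 without weights. The exposed mice stood at 9.29, 9.30, 9.37, 9.42 and 9.45 for miR-19b on day 28 and at 9.37, 9.46, 9.58 and 9.61 on day 3. All 5 day 28 mice lay below the day 3 mean of 9.51, and the days overlapped.

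Over both treatments, day 28 minus day 3 gave the smallest p of any member in the comparisons made: the difference of miR-19a was −0.13 ± 0.04, with an unadjusted p of 0.004 (limma adjusted p = 0.164). The 7 members ran from −0.16 for miR-106b to −0.07 for miR-92a, all below 0, where 73.2% of all tested miRNAs were above 0. None of the 7 passed, against 1.96% of all tested miRNAs. By limma 28 of 306 had an unadjusted p under 0.05, 2 of them members. All 7 stayed below 0 under each of the 6 other scalings and signals tried, and below the median of all tested miRNAs. That median itself was 0.10 under the scaling used throughout. It was −0.07 under the 75th percentile over all probes and −0.005 in the series value table. With no filter on dim probes, which tests more miRNAs, miR-19a passed (limma adjusted p = 0.047), 1 of 8 miRNAs that did. Under array weights, whose estimate stopped before it converged, 58 of all 306 tested miRNAs passed, against 6 without weights. The members among them were miR-19a, miR-19b, miR-20a and miR-106b. Red cell markers differed the same way, miR-451 by −0.40 ± 0.17, miR-144 by −0.50 ± 0.17 and miR-144* by −0.40 ± 0.19 over both treatments, none past the threshold. In vehicle mice all 3 red cell markers on day 28 lay below every day 3 mouse. There 2.94% of all tested miRNAs had days that did not overlap. In Printex 90 mice miR-451 differed by −0.10 ± 0.25, miR-144 by −0.25 ± 0.25 and miR-144* by −0.09 ± 0.27. The days overlapped there for these 3 markers. Their part in the members' differences was not tested.

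Day 28 was also set against day 1. In vehicle mice the differences ran from −0.09 to 0.06, 3 of 7 above 0, with 0 of 7 members and 1.96% of all tested miRNAs called; all 7 were below 0 without scaling and above 0 under the 75th percentile over all probes. In Printex 90 mice they ran from −0.14 to −0.03, 7 of 7 below 0, with 0 of 7 members and 1.31% of all tested called. At an unadjusted p under 0.05, limma gave 16 of 306 in vehicle mice, none a member. In Printex 90 mice it gave 20, 1 of them a member. There miR-19a differed by −0.12 ± 0.06 (limma adjusted p = 0.611) and all 5 day 28 mice lay below the day 1 mean. Under array weights, whose estimate did not converge, miR-19a (limma adjusted p = 0.016) and miR-19b (adjusted p = 0.018) passed there. They were among 11 of 306 tested miRNAs that did, against 4 without weights. In the same comparison miR-451 differed by −0.28 ± 0.22, miR-144 by −0.42 ± 0.22 and miR-144* by −0.36 ± 0.25, each with 4 of 5 day 28 mice below the day 1 mean and none past the threshold; their part was not tested. Over both treatments the range was −0.12 to 0.02, with 0 of 7 members against 2.29% of all tested. At an unadjusted p under 0.05 limma gave 28 of 306 here, 1 of them a member. Under array weights miR-19a and miR-19b passed here too, among 29 of 306 miRNAs, against 7 without weights. For day 3 minus day 1 over both treatments the range was 0.04 to 0.10 (2 of 7 above 0 without scaling), with 0 of 7 members and 0% of all tested called (limma; 6 of 306 at an unadjusted p under 0.05). In heart sections, fewer cells of a type and less RNA per cell cannot be told apart.

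**Figure D2:**
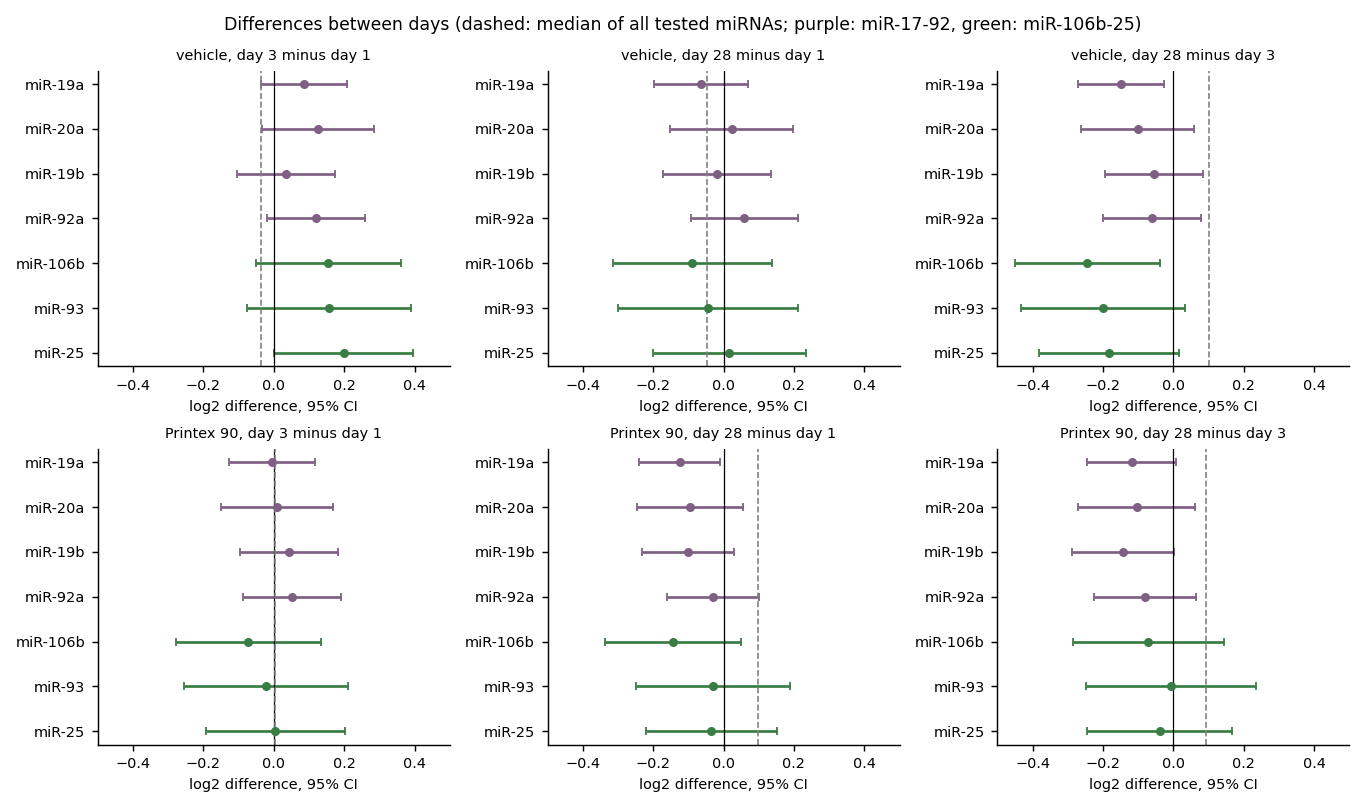
Each panel shows the log2 difference between 2 days within vehicle (top) or Printex 90 mice (bottom) for the 7 detected members, with 95% confidence intervals on the horizontal axis; purple is miR-17-92, green miR-106b-25, and the dashed line the median of 306 tested miRNAs. For day 28 minus day 3 all 7 points lie left of 0 in both rows, on the other side of 0 from the dashed line. With the 75th percentile over all probes that median was −0.03 in vehicle and −0.12 in Printex 90 mice.

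Other products of the clusters and their relatives were mostly dark. Of 23 related miRNAs listed, 22 are on the array, 16 were detected on 0 arrays and 3 entered the tests. From the miR-17-92 transcript, miR-17* and miR-18a* entered the tests, while miR-17 was detected on no array. The passenger strand miR-17* was detected on 17 arrays and differed by 0.12 ± 0.11 on day 1, and miR-18a*, detected on 24, by −0.35 ± 0.26. From the paralogous cluster on chromosome X, miR-20b was detected on 29 arrays and differed by 0.07 ± 0.07 on day 1 and by −0.08 ± 0.05 from day 3 to day 28 over both treatments. None of these 3 passed in those comparisons. The guide strand miR-18a was detected on 10 arrays, too few in a group to be tested.

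The members' small deviations from their group means were compared over the 29 arrays, to see whether products of 1 cluster vary together. Within miR-17-92 the 6 pairs of members correlated with a median Pearson r of 0.71 (0.60 to 0.80). Within miR-106b-25 the 3 pairs had a median of 0.79 (0.57 to 0.83). The 12 pairs between the clusters had a median of 0.53 (−0.01 to 0.78), and all 46665 pairs of tested miRNAs had a median of 0.07. Group means were removed first, p-values came from 100000 permutations within groups, and they were adjusted over the 21 pairs. By r, 6 of 6, 3 of 3 and 7 of 12 pairs passed, and 16 of 21 in all; by Spearman's rho 14 of 21 did.

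In miR-17-92 the closest pair was miR-19b and miR-92a, both also encoded on chromosome X, with r = 0.80 and rho = 0.76 (permutation adjusted p = 7e-05 and 0.000105). Without the 2 arrays farthest from the median of miR-19b the r was 0.76, and within the 4 slides it ran from 0.50 to 0.84. In miR-106b-25 the closest was miR-93 and miR-25, with r = 0.83 and rho = 0.86 (permutation adjusted p = 0.000105 and 7e-05). That r was 0.79 without the 2 farthest arrays and 0.91 to 0.98 within slides. The pair of miR-106b and miR-93 had r = 0.57 and rho = 0.43 (permutation adjusted p = 0.013 and 0.056), 0.37 without the 2 farthest arrays, and 0.91 with slide means also removed. Between clusters miR-19a went with miR-106b at r = 0.78 and rho = 0.48 (permutation adjusted p = 0.00021 and 0.031), while miR-19b and miR-93 were at r = −0.01.

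The height of these correlations depended on the scaling. With no scaling the medians were 0.98 within miR-17-92, 0.97 within miR-106b-25 and 0.93 between them, and 0.73 over all pairs of tested miRNAs. In the series value table they were 0.91, 0.89 and 0.83, and 0.03 over all pairs. Under these and the other settings tried the medians within each cluster were above that between clusters, a difference that was not tested.

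By the rule of highest Pearson r over the 29 arrays, the miRNAs most like each member were as follows. The closest to miR-25 and to miR-93 was miR-16, a member of another family that slows the cell cycle, at r = 0.90 and 0.85. The closest to miR-106b was miR-15b at r = 0.87, followed by miR-451 at 0.82. The closest to miR-20a was miR-20b at r = 0.96, which has the same seed, differs by 2 bases and lies in another cluster. Whether the probes of either also bind the other was not tested. The closest to miR-19b was miR-362-3p at r = 0.89, to miR-92a it was miR-19b, and to miR-19a it was miR-106b.

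Correlations with markers of other cell types were then taken in the same way. The 9 pairs of a miR-106b-25 member with a red cell marker had a median r of 0.75 (0.58 to 0.82), and 8 of 9 passed by r and 8 by rho after adjustment over all 133 pairs of members with markers. Pairs with these markers do not count as separate results, since the 3 markers deviated alike. On Printex 90 day 3 replicate 2, miR-451, miR-144 and miR-144* deviated by 0.81, 0.85 and 0.85. On Printex 90 day 1 replicate 3 they deviated by −0.57, −0.58 and −0.65. The 12 pairs of a miR-17-92 member with a red cell marker had a median of 0.17 (−0.28 to 0.59), and 2 of 12 passed by r, both with miR-19a, and 0 by rho. For miR-19a and miR-451 these were r = 0.59 and rho = 0.37 (permutation adjusted p = 0.022 and 0.273). With miR-451, miR-106b had r = 0.82 and rho = 0.74 (permutation adjusted p = 0.0017 and 0.0045), and miR-25 had r = 0.82 and rho = 0.81 (permutation adjusted p = 0.0017 and 0.0013). Without the 2 arrays farthest from the median these were 0.79 and 0.74, and within slides they ran from 0.82 to 0.94 and from 0.71 to 0.94.

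For miR-92a, which has the seed of miR-25, r with miR-451 was 0.17 and rho was 0.15 (permutation adjusted p = 0.643 and 0.726), and from −0.43 to 0.88 within slides. Without Printex 90 day 1 replicate 5 the r with miR-451 was 0.91 for miR-25, 0.83 for miR-106b, 0.83 for miR-93 and 0.25 for miR-92a. With no scaling the medians with red cell markers were 0.77 for miR-106b-25 and 0.59 for miR-17-92, and 0.69 and 0.46 in the series value table. The difference between the clusters was not tested.

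**Figure D3:**
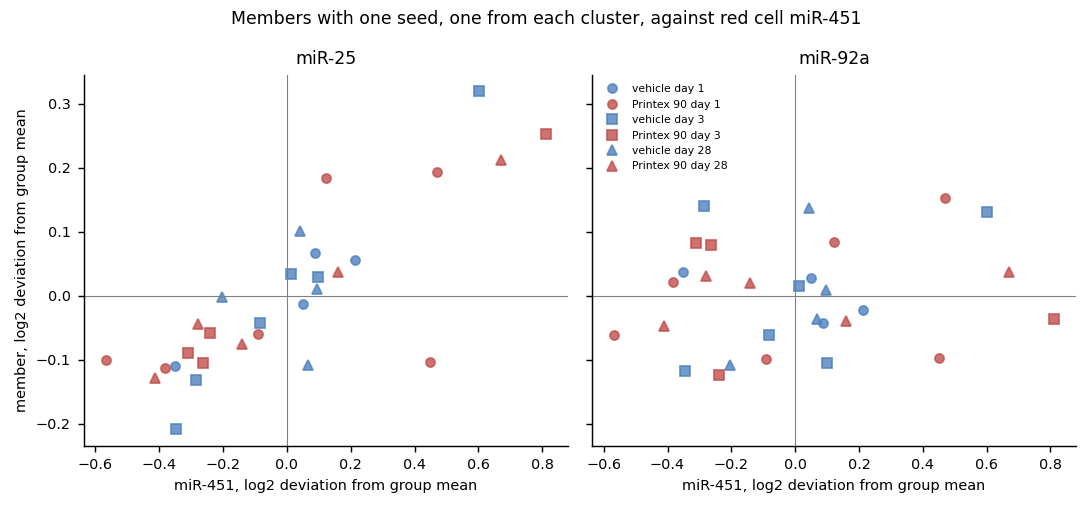
For 2 members with the same seed, miR-25 of miR-106b-25 (left) and miR-92a of miR-17-92 (right), the log2 deviation from the group mean is plotted against that of red cell miR-451, with 1 point per array, coloured by treatment and shaped by day. The points of miR-25 rise along miR-451 (r = 0.82), with Printex 90 day 1 replicate 5 below the rest at a miR-451 deviation of 0.45, and those of miR-92a spread widely (r = 0.17).

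Leukocyte markers gave both signs, and 6 of 12 pairs passed by r for miR-106b-25 and 1 of 16 for miR-17-92, against 6 and 0 by rho. With miR-142-3p, made in blood cells, r was 0.69 for miR-106b, 0.66 for miR-93 and 0.69 for miR-25, and from −0.24 to 0.50 in miR-17-92. With miR-142-5p, from the other arm of that precursor, r was 0.67 for miR-106b, 0.51 for miR-93 and 0.68 for miR-25. The miR-17-92 pair that passed was miR-19a with miR-142-5p, at r = 0.65 and rho = 0.55 (permutation adjusted p = 0.0017 and 0.053). With miR-150 of lymphocytes r was −0.60 for miR-106b (permutation adjusted p = 0.025), but 0.72 without scaling. On 1 slide miR-150 lay below its group mean on every array, with deviations from −0.57 to −0.21. The part of that slide in this r was not tested. Cardiac muscle markers gave r between −0.48 and 0.30 with the 7 members, and 0 of 35 pairs passed. With fibroblast markers the median r was 0.34 for miR-17-92 (0.11 to 0.56) and 0.24 for miR-106b-25 (−0.13 to 0.42). There 0 of 8 and 0 of 6 pairs passed by r, and 1 and 0 by rho. With smooth muscle markers the medians were −0.15 and −0.06, and 0 of 8 and 0 of 6 pairs passed. Of the endothelial pairs 1 of 8 passed by r for miR-17-92, with r from −0.49 to 0.59, and 0 of 6 for miR-106b-25. Their median r was −0.07 and −0.04. The pair that passed was miR-126-3p with miR-20a, at r = 0.59 and rho = 0.63 (permutation adjusted p = 0.027 and 0.016). The other endothelial marker, miR-126-5p, lay below its group mean on every array of the slide named for miR-150. Its deviations there ran from −1.18 to −0.84. The endothelial medians take both markers together, and the part of that slide in them was not tested. Against the share of spots well above background, the members' deviations had r from −0.31 to 0.23 with an unadjusted permutation p of 0.184 or more.

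**Figure D4:**
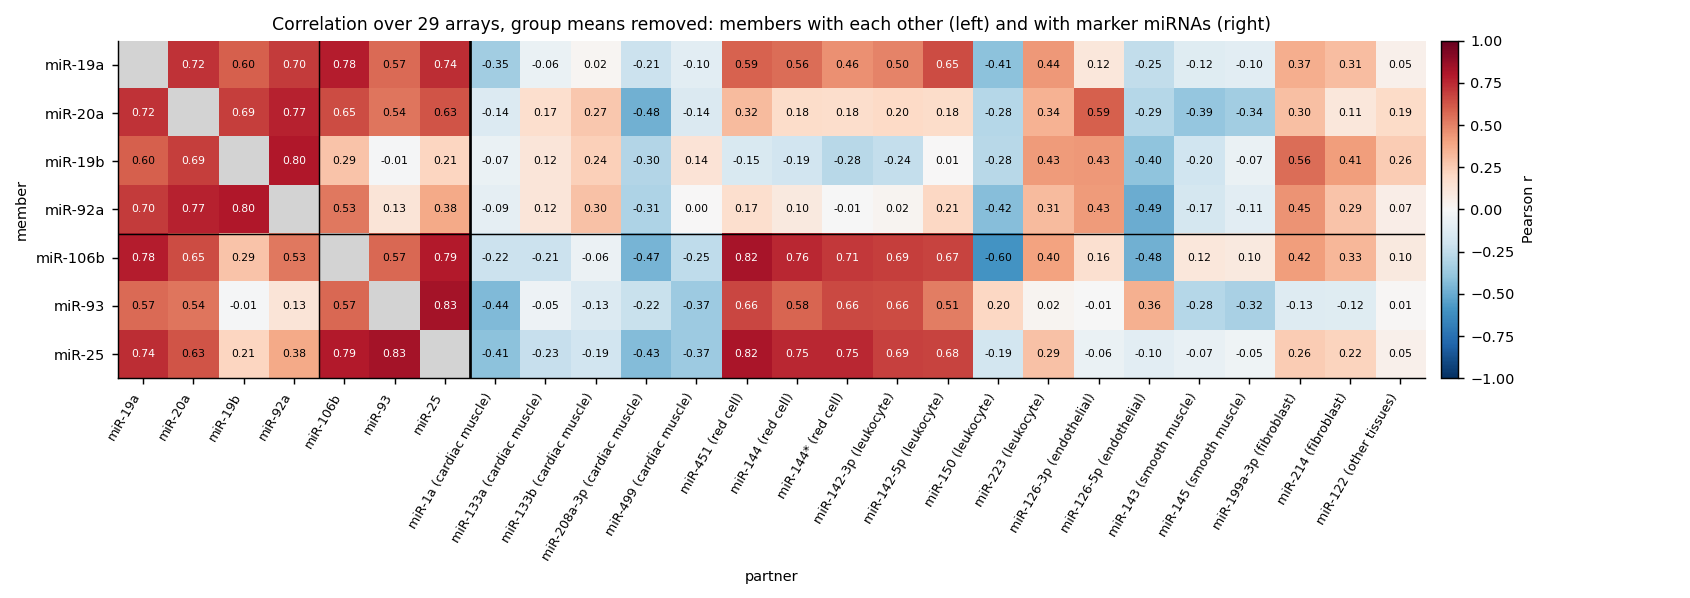
Pearson correlations over 29 arrays with group means removed, with the 7 detected members in rows and, in columns, the members again and then 19 marker miRNAs named with their cell type; colour runs from −1 (blue) to 1 (red). The 3 rows of miR-106b-25 reach 0.58 to 0.82 with the red cell markers, and the 4 rows of miR-17-92 run from −0.28 to 0.59.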

How the data were processed

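RNA of each mouse was hybridised alone to a 1-colour Agilent miRNA array. Per the file headers, images were read with Agilent Feature Extraction 10.7.3.1, and the deposited scanner files give intensity per spot (processed and median pixel signals). The series value table holds log2 values deposited by the authors, whose scaling is not given in the sources used here. Its column medians ran from 5.78 to 5.82, and its values ranked as the median pixel signals did on 29 arrays (Spearman at least 0.995). The 30th sample, Printex 90 day 3 replicate 3, had no scanner signal here and enters only through that table. Labels give no replicate numbers, so replicates are numbered in accession order. The study states 6 mice per group, of which 30 samples were used.

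Control and outlying spots were dropped, the 20 spots of a probe were averaged, and the processed signal was scaled on the 75th percentile of 418 probes detected on all arrays. A floor of 16.5 was set (1.88% of values), log2 was taken, and probes detected on at least 4 arrays of a group were kept and averaged per miRNA (2 probes per member), which left 306 miRNAs. Between 231 and 339 mouse miRNAs were detected per array and no spot was saturated; the number of arrays limits the precision.

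The 6 groups were fitted together with limma 3.58.1 in R 4.3.3 (lmFit, eBayes), with 16 contrasts and Benjamini-Hochberg adjustment over 306 miRNAs at 0.05. Correlations used Python 3.11.15 after group means were removed. The fit was tested on simulated data. Alternatives covered scaling, background (normexp, offset 50, on median pixel signals, since the files used here give no mean signal), filters, floor, probe choice, slide and scan day, array weights, leaving out each array, and the value table. Named miRNAs are the members, the listed relatives and markers, and per member those of highest Pearson r. Members and lists were chosen with earlier results of these data known. Sequences are RefSeq's (GRCm38.p6).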

Additional observations from a re-analysis of the deposited data

Results flagged for a closer look

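Of 42 sets of values of a member in a group, 3 held a mouse far from the others of its group; about 1 in 20 such sets would by chance. For miR-19a, Printex 90 day 1 replicate 6 stood at 7.26, where the other 5 mice ran from 7.05 to 7.12. For miR-19b, vehicle day 28 replicate 4 stood at 9.62 and the other 3 mice at 9.34 to 9.38. For miR-25, Printex 90 day 3 replicate 2 stood at 8.26 and the other 3 mice at 7.90 to 7.95; red cell miR-451 stood at 14.8 in that mouse, and its part was not tested.

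In the series value table, outside the comparisons made, miR-17 had a log2 value of 5.93 in Printex 90 day 3 replicate 3, above the 5.82 to 5.92 of the 6 vehicle mice of day 3. The other 4 Printex 90 mice of that day ran from 5.84 to 5.95, and on their arrays miR-17 was not well above background.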

How the results depend on the processing

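No paired analysis was made, since each array was of a different mouse, of 1 treatment and 1 day. The members' 16 differences were recomputed in 5579 alternative values. Of these, 10 passed the threshold: 9 under array weights, whose estimate stopped before it converged (lowest adjusted p = 0.00908), and miR-19a with no filter on dim probes. The sign changed in 336, of which 33 had a size over 0.1 before. In 297 the value moved by more than the residual SD, without scaling, by quantile normalization, under the 75th percentile over all probes, in the value table or within slides, where no test was made. Leaving out each array gave an adjusted p of 0.0661 or more for the members. The correlation of miR-106b with miR-150 turned from −0.60 to 0.38 under the 75th percentile over all probes and to 0.72 without scaling.

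Counts of miRNAs called moved as follows, and the causes were not tested. Under array weights, Printex 90 minus vehicle on day 3 went from 0 to 1, vehicle day 3 minus day 1 from 0 to 103, and both treatments day 3 minus day 1 from 0 to 114. Vehicle day 28 minus day 1 (6) became 1 with the 75th percentile over all probes, 0 without scaling, 3 by quantile or normexp, 11 with array weights, and 2 with only its groups or in the value table. Vehicle day 28 minus day 3 (2) became 0 without scaling or by normexp, 1 with the 75th percentile over all probes, quantile, the brightest probe, only its groups or the value table, 4 with total signal, slide or scan day, 5 without the filter and 6 with array weights. Printex 90 day 28 minus day 1 (4) became 0 without scaling or by normexp, 1 with the 75th percentile over all probes, quantile, only its groups or the value table, 2 with the brightest probe and 11 with array weights. Printex 90 day 28 minus day 3 (1) became 0 without scaling, by normexp, with only its groups or with probes detected on all arrays, 2 without the filter or with slide, 3 with scan day and 14 with array weights. Both treatments day 28 minus day 1 (7) became 1 with the 75th percentile over all probes or without scaling, 4 by quantile or normexp, 3 in the value table and 29 with array weights. Both treatments day 28 minus day 3 (6) became 1 with the 75th percentile over all probes, without scaling or in the value table, 2 by normexp and 58 with array weights. With each array left out in turn these 6 counts ran from 3 to 8, 1 to 5, 1 to 4, 1 to 2, 6 to 10 and 5 to 8, and the other 10 stayed at 0. Scan day, single probes, the value table on 29 arrays and the correlation settings were chosen after seeing the data. Within slides, few arrays of a group limit the values, and miR-17 at background has none.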

Other observations

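In the series value table, whose scaling is not stated, Printex 90 day 3 replicate 3 had log2 values of 7.56 for miR-19a, 8.24 for miR-20a, 9.48 for miR-19b and 8.59 for miR-92a. It stood at 8.65 for miR-106b, 7.63 for miR-93 and 8.43 for miR-25. For miR-20a and miR-92a it lay below all 6 vehicle mice of that day, which ran from 8.26 to 8.81 and from 8.66 to 9.18, and below the other 4 Printex 90 mice. For miR-93 it lay above the other 4 Printex 90 mice, which ran from 7.40 to 7.53, and within the vehicle mice.

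The 2 probes of a member followed each other over the 29 arrays to different degrees, with r from 0.59 for miR-93 to 0.98 for miR-106b after group means were removed. On day 1 the 2 probes of miR-92a gave exposure differences of 0.03 and 0.11, and those of miR-25 gave 0.15 and 0.19.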
